A study of Rattus norvegicus with 6 samples.

Results

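Motile cilia genes of the airway epithelium were followed gene by gene in rat lung. A list of 40 genes was taken by name, and a member was kept when its symbol equalled a gene name in the transcript table. Of the 40 genes, 38 were found among 21655 gene names, whereas Foxj1 and Cfap54 matched no gene name and were dropped. The FPKM of all transcripts under one gene name (fragments per kilobase of transcript, scaled to the sequencing depth) was summed in each rat. Such a sum also adds partial transcripts and assembled pieces within introns, so an order of genes by level is an order of these sums. The 38 members held 120 of the transcripts in the table.

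The lungs came from Sprague–Dawley rats in 2 groups of 3 animals, with 1 RNA library depleted of ribosomal RNA for each animal. These animals were part of a larger set of rats that the study divided at random into the groups, and how they were picked for sequencing is not stated. The age given for the rats, 7 weeks, is that before they were divided into groups. The control group received saline into the trachea. The pulmonary fibrosis (PF) model group received a single instillation of 7 mg/kg bleomycin, a DNA-damaging drug, by the same route. Lungs were collected after 28 days. No genetic modification was named for either group. The deposited coverage of each library corresponded to between 35778600 and 41112700 reads of 150 bases, to 6 digits. Whole lung is a mixture of cell types, so fewer ciliated cells and less RNA per ciliated cell cannot be told apart here.

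Ciliated cells line the conducting airways and beat to carry mucus towards the throat. Each motile cilium is built on a ring of doublet microtubules around a central pair, with outer and inner dynein arms as motors, nexin links and radial spokes as regulators, and tektins and other proteins within the doublets. RFX transcription factors bind X-box letters in the promoters of many of these genes, and Mcidas and Ccno drive the amplification of centrioles that precedes the growth of many cilia on a cell.

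The X-box letters were looked for in the RefSeq promoters of the members (assembly GRCr8, 250 bases before to 50 bases after the annotated start), since these sequences show what the members share apart from their levels. A promoter was matched for 31 members, and the most upstream window was used where a gene had several. The X-box pattern, GTNNCC then any 3 bases then GNAAC with N for any base, was searched on both strands and was found in 8 of the 31 windows (25.8%) and in 2.10% of all 27457 gene windows. The windows with it belonged to Ccno, Ccdc114 (Odad1 in RefSeq), Dnah12, Zmynd10, Spag6, Hydin, Tekt4 and Cfap44. Its half-site GTTGCC, which can overlap the pattern, was found in 15 member windows (48.4%) and in 12.2% of all windows. The forkhead letters TGTTTAC were found in 1 member window, that of Sntn (3.23%), and in 3.77% of all windows. A match is a run of letters and not a measured binding site. The stretches of 6 of these genes are printed to show how the matched letters lie near the start, 5′ to 3′ along the gene and with the matched letters in capitals. Ccno, whose match lay at the far end of the window, and Spag6, which was barely detected, are left out.

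Ccdc114 (chr1:105531191-105531264, plus strand): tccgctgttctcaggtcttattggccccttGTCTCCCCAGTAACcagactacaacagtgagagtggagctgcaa

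Dnah12 (chr16:1944660-1944733, plus strand): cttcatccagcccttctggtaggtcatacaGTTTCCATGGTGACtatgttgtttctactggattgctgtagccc

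Zmynd10 (chr8:117098944-117099017, plus strand): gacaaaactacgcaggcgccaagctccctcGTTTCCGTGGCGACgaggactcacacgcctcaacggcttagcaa

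Hydin (chr19:55146422-55146495, plus strand): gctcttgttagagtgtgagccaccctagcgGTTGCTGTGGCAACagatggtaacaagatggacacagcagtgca

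Tekt4 (chr10:14992241-14992314, plus strand): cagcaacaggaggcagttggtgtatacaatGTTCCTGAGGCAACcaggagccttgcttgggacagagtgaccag

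Cfap44 (chr11:69789879-69789952, minus strand): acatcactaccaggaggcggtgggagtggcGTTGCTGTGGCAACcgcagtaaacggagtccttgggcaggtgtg

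Of these, the Ccdc114 stretch carries the pattern as written, and the other 5 carry it on the opposite strand. In these 6 stretches the first matched base lay between position -62 (Dnah12) and -13 (Tekt4) from the annotated start. Hydin and Cfap44 held the same 14 letters.

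The first question was whether the cilia genes differed between the PF model and control lungs. No member passed the threshold used for expression changes, an unadjusted p of at most 0.05 together with a log2 ratio of group means of at least 1 in size. Of 36 members with a value above 0 in at least 3 of the 6 rats, 0 passed, and 298 of all 19645 genes tested did (1.52%). At an unadjusted p of at most 0.05 alone there was 1 member, Rfx3, against 965 of all genes (4.91%). None of the members passed an adjusted p of 0.05 in limma, whereas 2 of all genes did (0.0102%), and the smallest adjusted p of a member was 0.933 in limma with Benjamini-Hochberg adjustment. edgeR on read numbers estimated from coverage also gave 1 member at an unadjusted p of at most 0.05, against 3.96% of all genes, but there it was Lrrc6 (p of 0.035) and Rfx3 was at 0.071. It gave 0 members at an adjusted p below 0.05. Control and model rats did not overlap for 1 member, Lrrc6, and for 10.7% of all genes.

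In direction, 28 of the 36 members had a lower mean in the model rats on the log2(FPKM + 1) scale and 8 a higher one. Their median difference was -0.15, against -0.01 for all genes tested, of which 52.5% were lower in the model rats. The differences ran from -0.46 to 0.17, and their standard errors from 0.10 to 0.37 with a median of 0.23. The sign of the median rested on single animals. It was 0.03 without Control 3, with 19 of 36 members higher in the model group, and 0.01 without Model 1, with 20 of 36 higher. It was -0.28 without Model 3, with 35 of 36 lower.

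**Figure D1:**
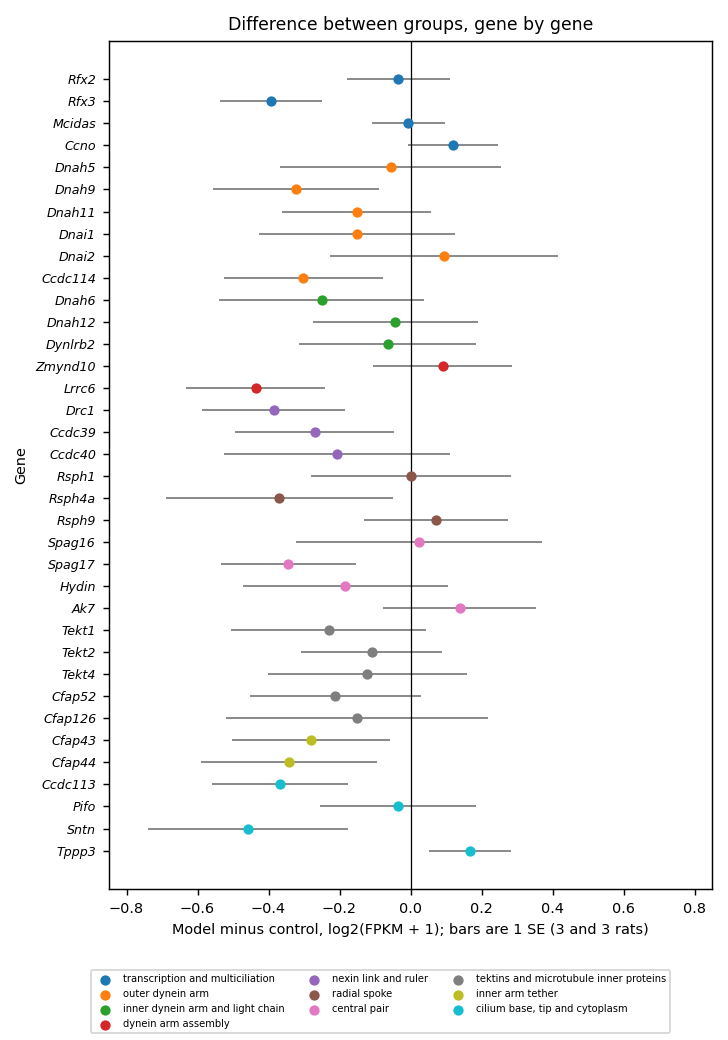
Difference between model and control rats for each of the 36 members tested, on the log2(FPKM + 1) scale, with bars of 1 standard error and 1 colour for each role in the cilium. The points lie between -0.46 (Sntn) and 0.17 (Tppp3), 28 of them left of 0.

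The level of the members varied widely between rats of the same group. Their level in a rat, divided by the mean of the same gene over the 6 rats, had a median of 0.91 in Control 1, 0.90 in Control 2 and 1.37 in Control 3. In the model rats the medians were 0.67 in Model 1, 0.91 in Model 2 and 1.21 in Model 3. The same medians over all genes tested lay between 0.97 and 1.01. Control 3 and Model 3 were thus the high animals of their groups and Model 1 the low one, while Control 1, Control 2 and Model 2 were close to each other.

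Gene by gene, Control 3 was the highest of the 6 rats for 22 of the 36 members and Model 3 for 13, leaving 1 member, Rsph4a, that peaked in Control 1. Over all genes tested, Control 3 was the highest for 23.1% and Model 3 for 23.6%. Model 1 was the lowest rat for 23 members, against 14.1% of all genes. In 26 members Control 3 led the controls and Model 3 led the models at once, which held for 14.6% of all genes. These counts describe genes measured in the same 6 libraries, which are not independent of one another.

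**Figure D2:**
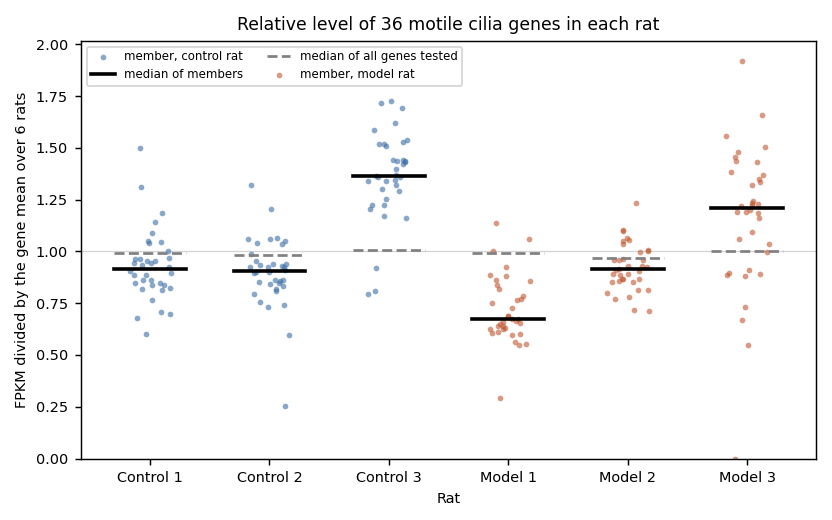
Level of each of the 36 members in each rat, as FPKM divided by the mean of that gene over the 6 rats, with the median of the members (black) and of all genes tested (dashed grey). The black line is highest in Control 3 (1.37) and Model 3 (1.21) and lowest in Model 1 (0.67), while the dashed line stays between 0.97 and 1.01.

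The summed FPKM of the 38 members was dominated by Tppp3. Without Tppp3 the sum was 204 in Control 1, 213 in Control 2 and 315 in Control 3, and 167 in Model 1, 211 in Model 2 and 259 in Model 3. The groups overlapped, the controls at a mean of 244 ± 61.5 (SD, n = 3) and the models at 212 ± 45.9 (SD, n = 3). The order of the 2 high rats depended on the transcripts counted. From annotated transcripts only, the sum without Tppp3 was 68.7, 73.9 and 94.7 in Control 1 to 3. In Model 1 to 3 it was 50.9, 64.9 and 97.4, so that Model 3 and not Control 3 was the highest. By level, 32 of the 38 members had a mean FPKM of at least 1 over the 6 rats, and the median of the members was 4.63.

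**Figure D3:**
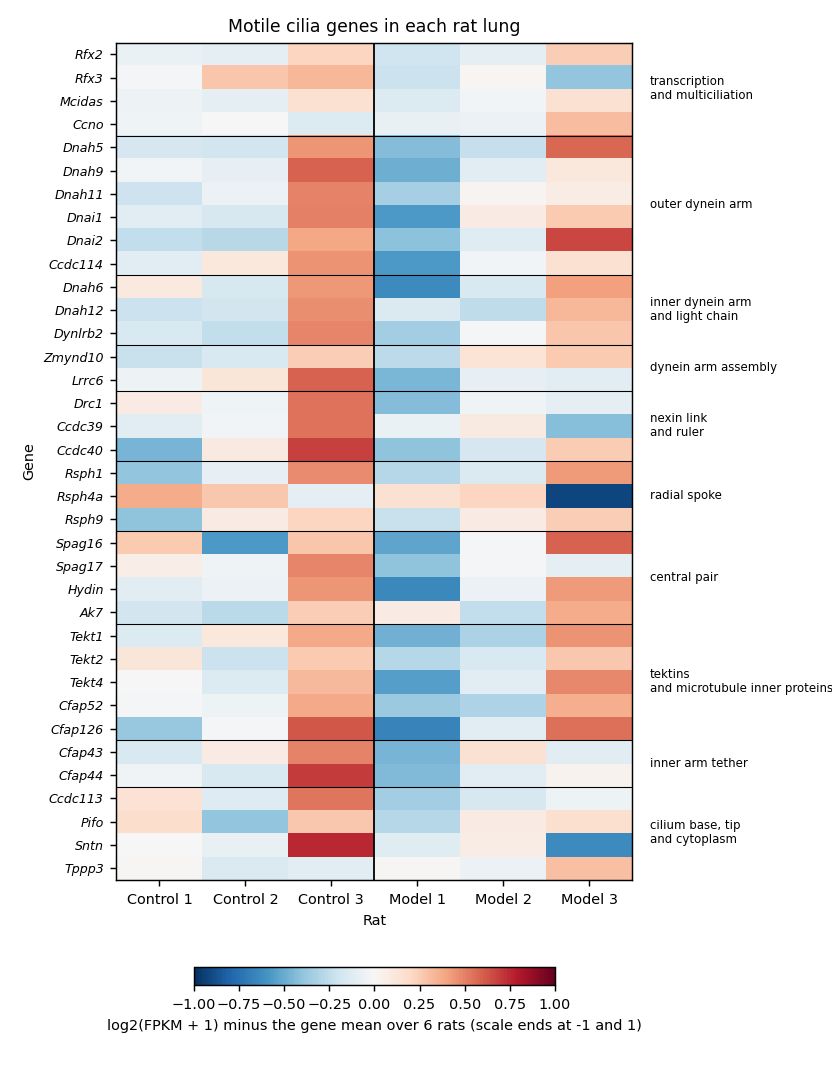
Each row is a member and each column a rat, and the colour gives log2(FPKM + 1) minus the mean of that gene over the 6 rats. In Control 3, 33 of the 36 rows are above their gene mean (red), and in Model 1, 33 are below it (blue). In Model 3, 9 rows are below it, most deeply Rsph4a, Sntn, Ccdc39 and Rfx3.

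Among the genes of transcription and multiciliation, Rfx3 had the smallest p of all members. Rfx3, an RFX factor of ciliated cells (chromosome 1, 245859633 to 246110218, minus strand), was at 15.3, 19.0 and 19.7 FPKM in Control 1 to 3 and at 13.2, 15.7 and 11.5 in Model 1 to 3. The groups overlapped only through Model 2, which was above Control 1. The fold of model over control was 0.75, and the log2 difference was -0.39 ± 0.14 (SE), with an unadjusted p of 0.032 and an adjusted p of 0.933 in limma.

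Rfx2, its close relative, had no such order. It was at 20.0, 19.7 and 24.6 FPKM in the controls and at 18.2, 19.7 and 25.1 in the models, a log2 difference of -0.03 ± 0.14 (SE). Mcidas and Ccno were low in all rats, from 0.19 to 0.46 FPKM for Mcidas and from 0.67 to 1.27 for Ccno. Ccno was the 1 tested member for which Control 3 was the lowest rat, at 0.67 FPKM, and Model 3 was the highest.

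All 6 genes of the outer dynein arm, the motor that sets the beat frequency, were highest in Control 3 within the controls and highest in Model 3 and lowest in Model 1 within the models. Ccdc114, which docks the arm to the doublet, had the largest sum at 12.3, 14.4 and 18.5 FPKM in the controls and 8.61, 13.1 and 14.9 in the models. Without intronic pieces its mean over the rats was 4.93 FPKM, below Dnah11 at 7.77 and Dnah9 at 6.90. The log2 difference was -0.30 ± 0.22 (SE), with an unadjusted p of 0.22 in limma. The heavy chain Dnah11 was at 9.84, 11.0 and 16.7 FPKM in the controls and 8.98, 11.8 and 12.2 in the models, a log2 difference of -0.15 ± 0.21 (SE). For both genes the control and model rats overlapped.

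The other 4 outer arm genes were the heavy chains Dnah5 and Dnah9 and the intermediate chains Dnai1 and Dnai2. Their log2 differences ran from -0.32 for Dnah9 to 0.09 for Dnai2. Dnai2 showed the spread between animals most clearly, with 2.69 FPKM in Model 1 and 6.78 in Model 3, against 3.03 to 5.39 in the controls.

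The 3 inner arm and light chain genes were likewise highest in Control 3 within the controls and in Model 3 within the models, and Model 1 was the lowest model for 2 of them. Dnah12, an inner arm heavy chain and the second most abundant member, was at 20.5, 21.1 and 33.5 FPKM in the controls and at 21.7, 20.0 and 30.5 in the models. Here the 2 high rats stood well above the other 4, and the log2 difference between the groups was -0.04 ± 0.23 (SE). Dnah6, another inner arm heavy chain, was at 6.75, 5.45 and 8.78 FPKM in the controls and 3.64, 5.51 and 8.62 in the models, a log2 difference of -0.25 ± 0.29 (SE). Dynlrb2, a dynein light chain, lay between 3.98 FPKM in Model 1 and 7.93 in Control 3.

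Dynein arms are put together in the cytoplasm before they enter the cilium, and the list held 2 assembly factors. Lrrc6 was the member whose groups did not overlap, with 7.37, 8.42 and 12.0 FPKM in the controls and 5.32, 7.20 and 7.01 in the models. Its fold was 0.70 and its log2 difference -0.44 ± 0.20 (SE), with an unadjusted p of 0.064 and an adjusted p of 0.933 in limma. The sum of Zmynd10 was at 3.72, 3.96 and 5.53 FPKM in the controls and 3.60, 5.05 and 5.63 in the models, a log2 difference of 0.09 ± 0.20 (SE). Most of it came from MSTRG.35735.1, an assembly of 22 exons that starts upstream of the annotated transcript of 12 exons. Whether that assembly takes in a neighbouring gene was not tested. The annotated transcript alone was at 1.73, 0.64 and 0.79 FPKM in the controls and 0.96, 1.16 and 1.68 in the models, highest in Control 1.

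Drc1, a subunit of the nexin link between doublets, was at 2.85, 2.52 and 4.31 FPKM in the controls and 1.69, 2.53 and 2.40 in the models. Model 2 was level with Control 2, and the other models were below all controls. The log2 difference was -0.39 ± 0.20 (SE), with an unadjusted p of 0.10 in limma.

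Ccdc39 and Ccdc40 form together the ruler that sets the spacing along the doublet, yet they separated in Model 3. Ccdc39 was at 4.26, 4.59 and 7.30 FPKM in the controls and 4.45, 5.05 and 3.23 in the models, so that Model 3 was the lowest rat. Ccdc40 was at 1.86, 3.21 and 5.33 FPKM in the controls and 1.99, 2.52 and 3.70 in the models, so that Model 3 was the highest model. The log2 differences were -0.27 ± 0.22 (SE) and -0.21 ± 0.32 (SE).

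Of the radial spoke genes, Rsph9 was at 4.10, 6.11 and 6.78 FPKM in the controls and 4.75, 6.13 and 6.96 in the models. Rsph1 was at 2.78, 3.68 and 5.88 FPKM in the controls and 3.08, 3.50 and 5.65 in the models. In both genes each model rat lay close to the control rat of the same rank, with log2 differences of 0.07 ± 0.20 (SE) and 0.00 ± 0.28 (SE). Rsph4a, a spoke head gene with a single annotated transcript, behaved otherwise and was listed at 0 in Model 3, at 1.10 and 1.20 FPKM in the other models and at 0.78 to 1.45 in the controls.

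Hydin, a very large protein of the central pair, was the most abundant gene of that group at 14.5, 15.0 and 21.7 FPKM in the controls and 9.70, 15.0 and 21.4 in the models. Ak7, an adenylate kinase of the axoneme, was at 2.40, 2.20 and 3.58 FPKM in the controls and 3.09, 2.25 and 3.99 in the models. Their log2 differences were -0.18 ± 0.29 (SE) for Hydin and 0.14 ± 0.22 (SE) for Ak7, the second largest positive difference, which was smaller than its standard error.

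Spag17, a central pair protein, was at 2.87, 2.59 and 4.19 FPKM in the controls and 1.79, 2.65 and 2.46 in the models, a log2 difference of -0.34 ± 0.19 (SE) with an unadjusted p of 0.12 in limma. Spag16 was low, between 0.23 and 1.75 FPKM. Spag6 was listed at 0 in 5 rats and at 0.04 FPKM in Control 3, and it was not tested. Its near-identical copy on another chromosome, named Spag6l in the table and no member, was at 9.46 to 17.2 FPKM, so the table held nearly all FPKM of the pair under the second name.

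All 5 tested genes of the tektins and microtubule inner proteins had Control 3 as the highest control, Model 3 as the highest model and Model 1 as the lowest model. Cfap126 was at 6.19, 8.29 and 13.4 FPKM in the controls and 4.90, 7.69 and 12.7 in the models, and had the largest standard error of all members at a log2 difference of -0.15 ± 0.37 (SE). Tekt2, a filament protein of the doublet wall, was at 5.10, 3.83 and 5.74 FPKM in the controls and 3.61, 4.06 and 5.78 in the models, a log2 difference of -0.11 ± 0.20 (SE). Tekt1, Tekt4 and Cfap52 had differences between -0.23 and -0.12. Cfap53 was listed at 0 in 5 rats and at 0.12 FPKM in Model 3, and was not tested.

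Cfap43 and Cfap44 belong to the tether that holds an inner arm to the doublet. Cfap44 was at 11.1, 10.1 and 19.0 FPKM in the controls and 8.09, 10.5 and 11.7 in the models, and Cfap43 at 5.43, 6.54 and 9.04 in the controls and 4.18, 6.92 and 5.62 in the models. Control 3 stood alone as the high rat for both. The log2 differences were -0.34 ± 0.25 (SE) and -0.28 ± 0.22 (SE).

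At the base, tip and cytoplasm of ciliated cells were the members with the largest positive and the largest negative difference. Tppp3, a microtubule-bundling protein that other cells also express, was by far the most abundant member at 136, 122 and 125 FPKM in the controls and 136, 130 and 166 in the models. Only Model 3 was above the range of the controls for Tppp3 beyond a small margin, and the log2 difference was 0.17 ± 0.12 (SE) with an unadjusted p of 0.20 in limma. With Ccno and Rsph4a, it was 1 of the 3 tested members that were not led by Control 3 within the controls.

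Sntn, the sentan of the ciliary tip, was at 5.57, 5.22 and 10.1 FPKM in the controls and 5.03, 5.88 and 3.20 in the models. The high control and the low model made up the difference of -0.46 ± 0.28 (SE), with an unadjusted p of 0.15 in limma, since the other 4 rats lay between 5.03 and 5.88. Ccdc113, a protein of the cilium base, was at 1.75, 1.27 and 2.59 FPKM in the controls and 0.96, 1.23 and 1.40 in the models, a log2 difference of -0.37 ± 0.19 (SE) with an unadjusted p of 0.099 in limma. Pifo lay between 0.97 and 2.12 FPKM with no order by group.

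There were 8 members that did not follow the order in which Model 3 leads the models. They were Rfx3, Lrrc6, Drc1, Ccdc39, Rsph4a, Spag17, Cfap43 and Sntn, and all 8 of them had a lower mean in the model group. Of the 28 members for which Model 3 was the highest model, 20 did. Since the level in Model 3 enters the model mean, the 2 counts are not independent.

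The sums also depend on what was assembled under a gene name. Of the 120 transcripts, 48 were annotated and 37 were newly assembled isoforms that share a splice junction with an annotated one. Another 2 were MSTRG.3921.7, which overlapped exons of Rfx3 in another way, and MSTRG.6944.1, beyond the end of Dnai2. The remaining 33 lay wholly within an intron of the host gene. Among these 33 were pieces on the strand opposite to the gene, in Rfx3, Dnah11, Dnah12 and Cfap44, and many with no strand given. Such intronic pieces were found for 12 members and made up 85.2% of the summed FPKM of Sntn, 79.1% of Lrrc6, 67.6% of Dnai1, 67.0% of Spag16, 63.8% of Ccdc114 and 58.5% of Rfx2. Without them Sntn was at 0.76, 0.71 and 1.27 FPKM in the controls and 1.01, 0.98 and 0.46 in the models, a log2 difference of -0.08 with an unadjusted p of 0.67 in limma. Lrrc6 without them was at 2.30, 1.53 and 2.38 FPKM in the controls and 1.14, 1.47 and 1.09 in the models, so that all models remained below all controls. The unadjusted p of Lrrc6 was then 0.024 and that of Rfx3 0.053 in limma.

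Transcript by transcript, 1 of 116 member transcripts tested passed the p and fold threshold, against 1934 of 64867 transcripts in all (2.98%). It was an assembled isoform of Dnah12 with 60 exons (MSTRG.13622.5, chromosome 16, 2385879 to 2518738, plus strand). It was at 3.37, 2.23 and 2.16 FPKM in the controls and 0.30, 1.54 and 0.13 in the models, a log2 difference of -1.19 ± 0.35 (SE) with an unadjusted p of 0.015 and an adjusted p of 0.945 in limma. The model rats were all lower, while the sum of Dnah12 had a log2 difference of -0.04. Without Model 1 it no longer passed, and MSTRG.17782.4 of Hydin was then the 1 member transcript that did. Most of that sum came from MSTRG.13622.7, a shorter isoform of 15 exons at the end of the gene, at 10.3 to 16.2 FPKM in the controls and 9.82 to 20.8 in the models. No member transcript passed an adjusted p of 0.05 in limma. An unadjusted p of at most 0.05 in limma was reached by 3 of the 116, and the share of all transcripts at that p alone was not worked out.

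In some other members, picked out after their values were seen, single rats differed from the rest in which isoform took the reads. For Cfap43, the isoform MSTRG.4403.1 was at 9.01 FPKM in Control 3 and 5.32 in Model 3 and between 0.65 and 0.97 in the other 4 rats, whereas MSTRG.4403.2 was at 0.03 in Control 3 and 0.30 in Model 3 and between 2.92 and 5.10 in the others. For Cfap126, MSTRG.10353.2 was at 11.1 FPKM in Control 3 and 5.65 in Model 3, and at 0 to 0.45 elsewhere. An annotated Hydin isoform of 96 exons was at 3.27 FPKM in Model 3 and at most 0.04 in the other rats. For Cfap44, MSTRG.7772.1 was at 6.53 FPKM in Control 3, at 3.37 in Model 2 and near 0 in the other rats, Model 3 included. How an assembler divides the reads of overlapping isoforms can differ between libraries, and its part in these values was not tested.

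**Figure D4:**
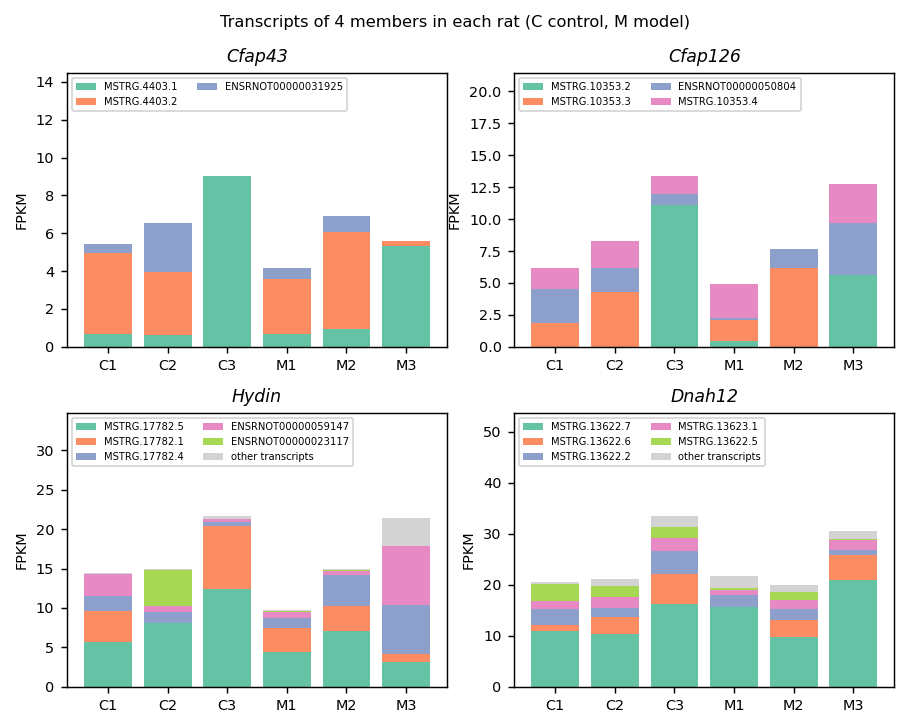
FPKM of the transcripts of Cfap43, Cfap126, Hydin and Dnah12 stacked for each rat (C control, M model), with up to 5 transcripts of each gene in colour and the rest in grey. In Cfap43 and Cfap126 the green isoform takes 9.01 and 11.1 FPKM in Control 3 and 5.32 and 5.65 in Model 3, but little in the other rats.

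Of a further list of 94 genes of motile cilia, 78 were tested and 0 passed the p and fold threshold. They followed the same course, with 61 of 78 lower in the model group, a median log2 difference of -0.12, and median relative levels of 1.32 in Control 3, 1.08 in Model 3 and 0.74 in Model 1. At an unadjusted p of at most 0.05 in limma there were 4 (5.13%, near the 4.91% of all genes), each lower in the model rats, and 0 at an adjusted p below 0.05 in limma or in edgeR. The smallest p belonged to Lrrc34, at 9.43, 10.1 and 12.8 FPKM in the controls and 6.49, 7.65 and 6.67 in the models. All models were below all controls, with a log2 difference of -0.56 ± 0.13 (SE), an unadjusted p of 0.0048 and an adjusted p of 0.933 in limma.

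Spef2, a central pair protein, was at 6.83, 5.98 and 7.58 FPKM in the controls and 3.08, 5.79 and 2.96 in the models, a log2 difference of -0.70 ± 0.23 (SE) with an unadjusted p of 0.021 in limma, and 79.4% of its FPKM lay in intronic pieces. Cfap100, a partner of the inner arm tether, was at 9.09, 7.17 and 11.6 FPKM in the controls and 3.96, 7.75 and 5.10 in the models, a log2 difference of -0.66 ± 0.25 (SE) with an unadjusted p of 0.037 in limma. In both, Model 1 and Model 3 were low. Model 2 was within the range of the controls for Cfap100. For Spef2 it was slightly below the lowest control, so that the groups did not overlap, as for 10.7% of all genes. Of 26 tested genes of intraflagellar transport and the BBSome, which serve primary cilia too, 0 passed the p and fold threshold. Here too most were lower in the model group, 21 of the 26, with a median log2 difference of -0.09. Their median relative levels stayed between 0.92 and 1.15 in the 6 rats.

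Of the 7 markers of club and secretory cells, 2 were highest in Control 3 and Model 3, namely Scgb1a1 and Scgb3a2, secreted proteins of club cells. Scgb1a1 was at 4514, 5648 and 7693 FPKM in the controls and 4065, 4689 and 6140 in the models, and Scgb3a2 at 98.4, 112 and 214 in the controls and 94.3, 116 and 191 in the models. The other 5 were high in Model 3 alone. Bpifa1, a secreted protein of upper airways, was at 95.8 FPKM there, at 0.14 in Control 3 and listed at 0 elsewhere. Scgb3a1 was at 47.0 FPKM in Model 3 against 1.46 to 6.45 elsewhere, Muc5b, a gel-forming mucin, at 22.2 against 1.59 to 3.68, Bpifb1 at 40.6 against 4.75 to 12.1 and Cyp2f4, an oxidising enzyme of club cells, at 33.8 against 11.9 to 16.7. The 4 basal cell markers were all low, with sums of 2.63 FPKM in Model 3 and 0.25 to 0.59 in the other rats. The 3 tested neuroendocrine markers were near the floor too, at a mean FPKM of 0.16 for Calca, 0.087 for Chga and 0.14 for Syp. Their median relative level was 2.65 in Control 3, 0.46 in Model 3 and 0 in Model 1, and such ratios rest on few reads.

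**Figure D5:**
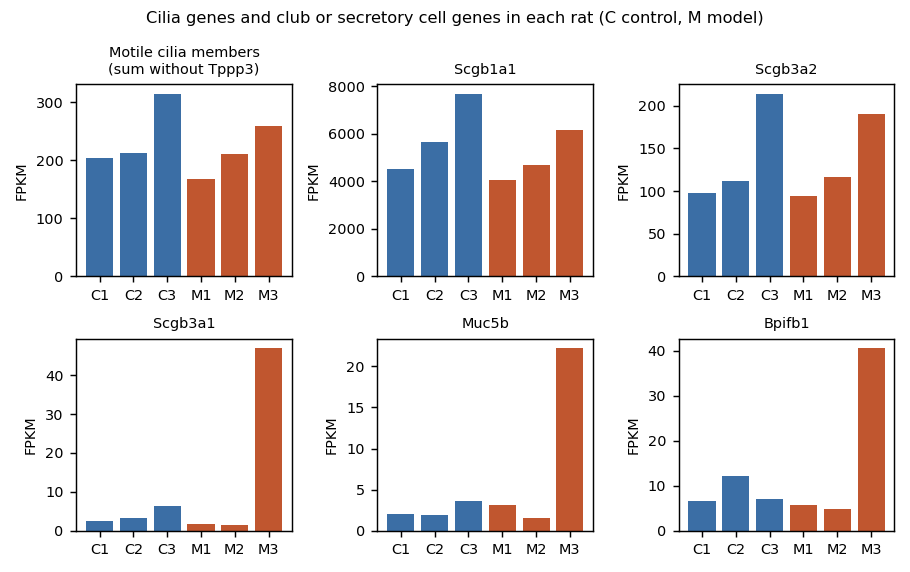
FPKM in each rat (C control, M model) of the motile cilia members summed without Tppp3, of Scgb1a1 and Scgb3a2, and of Scgb3a1, Muc5b and Bpifb1. The upper panels are highest in Control 3 and Model 3, and the lower panels are high in Model 3 alone, at 47.0, 22.2 and 40.6 FPKM.

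Outside the airway, markers of cartilage, a tissue of large airways, were near 0, with 4 of 5 found by name and sums of 0.099 to 0.118 FPKM in the controls and 0.024 to 0.085 in the models. The cardiac muscle markers, which mark pulmonary vein walls and heart, summed to 25.6 FPKM in Model 3, to 6.09 and 5.94 in the other models and to 6.07 to 10.5 in the controls. Myh6, the atrial myosin chain, was at 5.11 FPKM in Model 3, at 0.03 in Model 2 and listed at 0 in the other rats. Among the 54 marker genes tested in 13 lists, 2 passed the p and fold threshold, which 1.52% of all genes passed. Both were under 0.5 FPKM in every rat and at an adjusted p of 0.933 in limma. Nppa, a hormone of heart muscle, was at 0.11, 0 and 0 FPKM in the controls and 0.17, 0.15 and 0.15 in the models, with an unadjusted p of 0.026 in limma. Calca, a peptide gene of neuroendocrine cells, was at 0.15, 0.19 and 0.49 FPKM in the controls and 0, 0.14 and 0 in the models, with an unadjusted p of 0.047 in limma. Type 2 and type 1 alveolar cell markers had median relative levels between 0.83 and 1.14 in the 6 rats. Both lists were highest in Model 1, at 1.11 and 1.14. In Control 3 they were at 0.83 and 0.84, with type 2 markers also at 0.83 in Control 2. Of the tested markers, 0 of 7 for type 2 and 1 of 6 for type 1 were lower in the model group. Smooth muscle markers were at 1.43 in Model 3, 0.92 in Control 3 and 0.81 to 1.10 in the other rats. The part of the sampled piece of lung, and of the share of airway in it, in the differences between rats was not tested.

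Circular RNAs, which are mostly joined by back-splicing of exons, were listed for 11 members as 26 circles among 5216, of which 1, from Spag17, was an intronic circle, with 53 back-splice reads in all and at most 6 reads for a single circle. Member circles took 7 of 2595 back-splice reads in Control 1, 6 of 2183 in Control 2 and 14 of 2667 in Control 3, and 3 of 2458 in Model 1, 5 of 2037 in Model 2 and 18 of 2964 in Model 3. The shares were 0.525% in Control 3 (95% exact binomial interval 0.287 to 0.879%) and 0.607% in Model 3 (0.360 to 0.958%), and 0.122 to 0.275% in the other 4 rats. Control 3 and Model 3 were again the highest. The interval of Control 3 overlapped those of all other rats and that of Model 3 all but the interval of Model 1 (0.0252 to 0.356%), and 22 of the 26 circles were seen in a single rat. In Model 3, 11 of the 18 reads came from Dnah11. The intervals cover counting error only.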

How the data were processed

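The 6 rat lung libraries, 3 control and 3 PF model, were analysed. By the study's methods and the labels, total RNA was depleted of ribosomal RNA and prepared with a stranded kit. The submitters' notes name HISAT2, StringTie and TopHat, whereas the study's methods name Bowtie2 and Tophat2 as aligners, and which of them made the FPKM is not clear. The genome build is not given in the sources used here, and coordinates are those of the files. The authors deposited FPKM and mean per-base coverage (signal) for each transcript, assembled over the libraries, and back-splice read counts for each circular RNA, together with the same counts scaled by a total per sample, which were not used. No comparison columns of the authors were used.

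FPKM was summed over the transcripts of each gene name. The main test was limma 3.58.1 with a trend on log2(FPKM + 1), two-sided, with Benjamini-Hochberg adjustment over all genes with FPKM above 0 in at least 3 of 6 samples, and likewise for transcripts. A fold change on this scale understates the change of genes of low FPKM. The ratio of group mean FPKM gave the fold of the threshold, after the study's methods (p of at most 0.05 and a log2 ratio of at least 1 in size). An exact permutation test of 3 against 3 animals cannot go below p = 0.10. edgeR 4.0.16, on reads estimated from coverage, transcript length and a read length of 150 bases, served as an alternative. Other alternatives changed the pseudocount, filter, scaling, summing, moderation, replicate block and sample set. The fitting was tested on simulated data in which 200 genes were changed by 2 log2 units. At an adjusted p below 0.05 in limma, 94% of these were found, with 15 false calls. The differences of the members were much smaller, so this test does not tell how often changes of their size would be found. Motifs were searched as exact letters.

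Members, roles, marker lists and tests were chosen with earlier results of these data known. Values are printed for the 2 most abundant members of each role, the 5 of smallest p, the 2 largest rises and falls, the 3 further cilia genes of smallest p and any listed gene past p and fold. Rows under one name can include intronic or neighbouring assemblies. Each animal gave 1 library, so p-values set a group difference against the spread between animals within the groups. In limma that spread is moderated with the values of all genes tested.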

Additional observations from a re-analysis of the deposited data

How the results depend on the processing

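Members past the p and fold threshold stayed at 0, and members at an adjusted p below 0.05 at 0, under all 17 alternatives. The median log2 difference of the members ranged from -0.18 to -0.08 over settings that kept all 6 rats and from -0.28 to 0.03 when 1 rat was left out. All genes past the threshold numbered 84 with a mean FPKM of at least 1 and 519 from annotated transcripts only. With FPKM rescaled to TPM, 58.2% of the called genes were higher in the model rats, against 43.6% in the main setting and 42.0 to 49.2% in the others. Leaving out 1 rat gave 0 to 2 further cilia genes (Spef2 and Cfap100 without Model 2, Lrrc23 without Model 1, Dnah7 without Model 3) and 1 to 4 member transcripts (4 without Control 1, 3 without Model 2, 2 without Control 3) past the threshold. Of the 19322 to 19369 genes tested in these settings, 138 to 179 passed it as higher in the model rats and 161 to 218 as lower. The share of all transcripts past it in these settings was not worked out. Calca was no longer called without Control 2, Control 3, Model 1 or Model 3, and Nppa without any rat but Control 1.

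The difference changed sign in at least 1 setting for 13 named members, from small ones such as Rsph1 to Cfap44 at -0.34, and none of these was called in any setting. With 1 rat left out the log2 difference ran from -0.16 to 0.065 for Rfx2, from -0.29 to 0.060 for Dnah11, from -0.22 to 0.18 for Dnah12, from -0.52 to 0.0061 for Dnah6, from -0.019 to 0.24 for Zmynd10 and from -0.49 to 0.081 for Ccdc40. It ran from -0.11 to 0.20 for Rsph9, from -0.21 to 0.24 for Rsph1, from -0.44 to 0.091 for Hydin, from -0.013 to 0.30 for Ak7, from -0.46 to 0.15 for Cfap126 and from -0.27 to 0.0046 for Tekt2. As TPM the difference was 0.047 for Rfx2 and 0.040 for Dnah12. From annotated transcripts only it was 0.020 for Rfx2, -0.043 for Ak7 and 0.17 for Cfap44. Without intronic transcripts, a setting chosen after seeing the data, it was 0.065 for Rfx2 and -0.043 for Ak7. Weighted by transcript length it was -0.0029 for Rsph1 and -0.0041 for Ak7, and in edgeR -0.0029 for Rsph1. The cause was not tested.

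Replicate numbers gave no sign of pairing the rats over all genes: deviations of same-numbered rats correlated at 0.06, 0.03 and -0.08. Correlations over all genes cannot show a link between same-numbered rats that acts on few genes, and this was not tested for the members. Control 3 and Model 3 both led their groups in 26 of 36 members, against 14.6% of all genes. With the number as a replicate block, 312 genes and 0 members passed the threshold. In this balanced design the block cannot change a group difference, so the median of the members was -0.15 by construction. At an unadjusted p of at most 0.05 in limma there were 3 members with the block, Lrrc6 (0.030), Ccdc114 (0.041) and Rfx3 (0.042). That held for 881 of all 19645 genes. With 3 rats in each group and a median standard error of 0.23, changes of the size seen in single members could not be told from the spread between animals.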
